A study of Homo sapiens with 12 samples.

Results

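The 10 genes described here are textbook transcriptional targets of p53: CDKN1A, MDM2, ZMAT3, RPS27L, DDB2, BAX, TP53INP1, AEN, SESN1 and FDXR. They were chosen by symbol, and each was found once among the 57773 entries of the deposited count table. All 10 passed the filter on low counts and were among the 15715 genes tested. They were measured by RNA sequencing in PEO1 cells, a human ovarian cancer line that is established in culture and that the series describes as carrying mutant p53. The 4 groups, of 3 libraries each, were pLKO.1 control-vector cells left untreated (0 h), pLKO.1 cells given 10 µM fulvestrant for 48 h, and the same 2 states in cells carrying shp53, a short hairpin RNA against p53. Fulvestrant is an estrogen receptor antagonist that also causes the receptor to be degraded. All cells grew in RPMI-1640 with 10% serum, penicillin and streptomycin, and 2 µg/mL puromycin. The treatment protocol names fulvestrant together with 100 pM estradiol, and the sources used here do not say whether untreated cells also received the hormone. Drug, culture time and hormone therefore cannot be told apart in a comparison of fulvestrant with untreated libraries. The labels give 1 hairpin name and 1 vector name, and do not say whether the lines are pools or single clones. Loss of p53, other effects of the hairpin and other differences between the lines therefore cannot be told apart. Nor do the labels say that the 3 libraries of each group are separate cultures. The p-values then reflect the spread among these libraries alone, and that spread may be technical.

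Wild-type p53 is a transcription factor that binds DNA as a tetramer, at sites made of a pair of short half-sites, and switches on genes for cell cycle arrest, DNA repair, apoptosis and metabolic adaptation. One of its targets, MDM2, encodes the ubiquitin ligase that in turn degrades p53, which closes a feedback loop. The question the design poses for these genes is whether their levels depend on the p53 that this mutant line still makes, with and without fulvestrant.

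Libraries held 21581887 to 28481541 counts. The 10 ovarian carcinoma and epithelial markers were all detected above the filter, with summed levels of 5456 to 8788 CPM (counts scaled to a common library size) across the libraries. Of 6 fibroblast markers, LUM and COL3A1 were at 0 in all libraries and the sum of the 6 was 1.53 to 7.22 CPM. Only 1 of these 6 passed the filter, and COL1A1 had 1.40 to 7.22 CPM. Of 6 leukocyte and endothelial markers the sum was 5.77 to 15.8 CPM, and 3 passed the filter. Among them CDH5 had 4.88 to 9.77 CPM and CD14 0.72 to 6.35 CPM. In bulk RNA, fewer cells making a transcript and less of it per cell cannot be told apart.

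Near the annotated start, some of these genes held closer matches to the p53 consensus than others. RefSeq promoter windows (GRCh38.p14, 250 bases before to 50 bases after an annotated transcription start) were available for 9 of the 10 genes, 17 windows in all, and were searched with the p53 half-site consensus, which reads the same on both strands. A half-site without mismatch was found in 6.63% of all 35116 windows, and in 5 of the 17 member windows, or 29.4%, from 5 of the 9 genes. A full site, 2 half-sites with 0 to 13 bases between them, contains its half-sites; without mismatch it was found in 10 windows of the genome, or 0.0285%, and 1 of these belonged to DDB2. A full site with at most 2 mismatches was in 7.82% of all windows and in 6 of the 17 member windows, or 35.3%, from 5 of the 9 genes. Overlapping MDM2 windows hold the same site, which is thus counted more than once, so the 17 windows are not all separate promoters. The sequences below are 1 match for each of DDB2, MDM2, AEN, FDXR and RPS27L and both kinds for SESN1, shown so that they can be set beside the levels, with the half-sites in capitals. The DDB2 match (chr11:47214975-47215003, plus strand) begins 6 bases into the transcript, within the first exon, with 0 mismatches. The MDM2 match (chr12:68808918-68808947, plus strand) has 2 mismatches and lies 94 bases before the internal start, inside the MDM2 gene.
DDB2 full site: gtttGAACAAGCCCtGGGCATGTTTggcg
MDM2 internal promoter full site: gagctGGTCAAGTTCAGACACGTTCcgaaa
AEN full site: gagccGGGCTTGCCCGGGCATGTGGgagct
FDXR full site: GGGCGGGCCCgggcaggagcGGGCTTGCCC
RPS27L half-site: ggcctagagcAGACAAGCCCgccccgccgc
SESN1 full site: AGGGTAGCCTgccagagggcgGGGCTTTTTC
SESN1 half-site: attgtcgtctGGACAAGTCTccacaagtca

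The AEN match (chr15:88621301-88621330, plus strand) and the FDXR match (chr17:74872996-74873025, minus strand) each have 2 mismatches and begin 34 and 31 bases before the start. The RPS27L half-site (chr15:63157517-63157546, minus strand) has none. The SESN1 full site (chr6:109095058-109095088, minus strand) has 2 mismatches and a spacer of 11 bases, and its half-site (chr6:109009018-109009047, minus strand) in another window has none, yet SESN1 did not pass with the hairpin in either state. ZMAT3 came no closer than 3 mismatches in its windows, and CDKN1A and BAX no closer than 4. The known p53 elements of CDKN1A lie further upstream, outside the window. The count files were made on GRCh37/hg19 per the submitters' processing notes, so these coordinates belong to RefSeq and not to the counts. A match describes letters in a window and shows no binding.

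The longer stretch before the internal MDM2 start is shown because MDM2 is the feedback gene whose level moved least with the hairpin in untreated cells apart from SESN1. It spans chr12:68808767-68808994 on the plus strand, lies in no annotated exon of GENCODE 29, and has the same site in capitals.
MDM2 internal promoter: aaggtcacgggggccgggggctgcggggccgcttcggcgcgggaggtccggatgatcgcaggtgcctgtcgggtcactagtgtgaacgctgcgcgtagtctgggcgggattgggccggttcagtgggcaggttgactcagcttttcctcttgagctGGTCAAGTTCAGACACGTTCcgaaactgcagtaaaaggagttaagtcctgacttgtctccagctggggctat

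In untreated cells 3 of the 10 genes were lower with the hairpin: ZMAT3, RPS27L and DDB2. No member was called higher. In the same edgeR test the share of all tested genes called lower was 0.566% and the share called higher was 1.02%. At an unadjusted edgeR p under 0.05, 0 of 10 members were higher and 6 lower. The share of all genes at that cut was not counted. DESeq2 called 0 members higher and 3 lower, and 156 of all genes higher and 96 lower. The median log2 difference was -0.51 over the members and -0.01 over all tested genes. Under fulvestrant 6 members were lower with the hairpin, namely the same 3 and CDKN1A, BAX and AEN, and TP53INP1 was higher. There the background was 2.74% lower and 4.28% higher, and the medians were -0.92 over the members and 0.00 over all tested genes. MDM2, SESN1 and FDXR passed in neither state with edgeR. DESeq2 called 8 members under fulvestrant, 7 lower and 1 higher, with FDXR among the lower. Of all genes DESeq2 called 435 lower and 519 higher there.

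**Figure D1:**
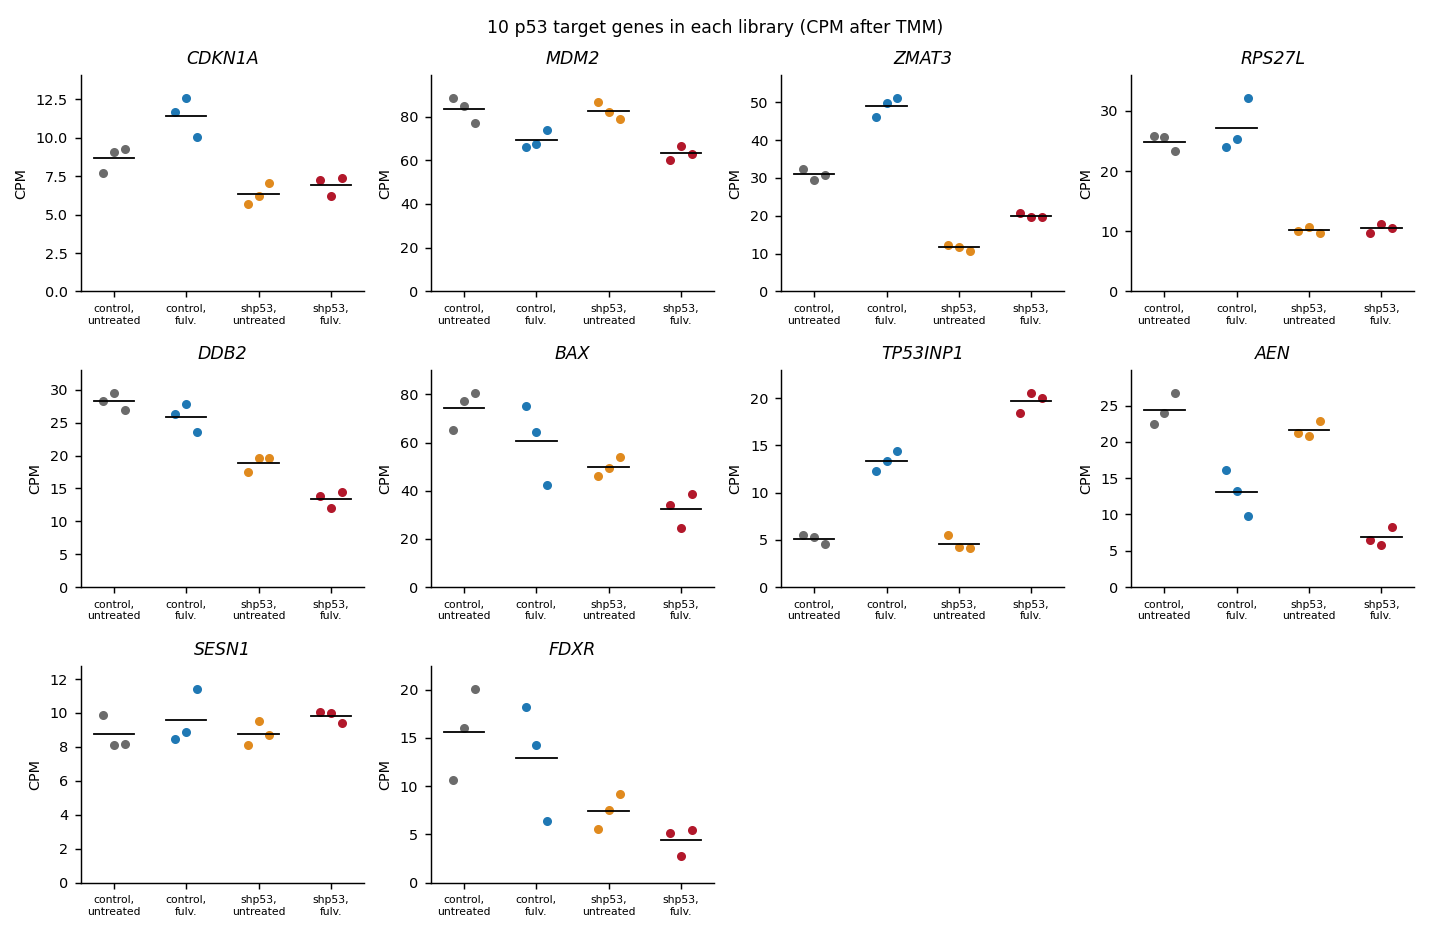
Level of the 10 target genes in each library (points, CPM after TMM scaling; bars are means of 3 libraries; each axis starts at 0) in the 4 groups. ZMAT3, RPS27L and DDB2 are lower in every knockdown library than in every control-vector library, TP53INP1 rises with fulvestrant in both lines, and MDM2 and SESN1 sit at like levels in both lines.

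ZMAT3 (ENST00000311417) encodes a zinc-finger RNA-binding protein that acts on splicing and is a p53 target with tumour suppressor activity. It stood at 32.5, 29.5 and 30.8 CPM in untreated control-vector libraries and at 12.4, 11.8 and 10.8 CPM in untreated knockdown libraries. Under fulvestrant the levels were 46.2, 49.7 and 51.2 CPM against 20.6, 19.7 and 19.7 CPM. Every knockdown library lay below every control library, so the 4 groups formed 4 separate levels, with fulvestrant-treated control cells highest and untreated knockdown cells lowest. The log2 difference with the hairpin was -1.41 (SE 0.07, adjusted p = 6.62e-06) untreated and -1.29 (SE 0.07, adjusted p = 9.27e-06) under fulvestrant. The knockdown level was 37.6% and 40.8% of control.

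RPS27L (ENST00000330964) encodes a paralog of a small-subunit ribosomal protein and is induced by p53. Untreated control-vector libraries had 25.8, 25.6 and 23.3 CPM and untreated knockdown libraries 10.1, 10.7 and 9.65 CPM. Under fulvestrant the values were 24.02, 25.3 and 32.2 CPM in control-vector cells and 9.78, 11.3 and 10.6 CPM in knockdown cells. The 6 control libraries lay above the 6 knockdown libraries, and the treated and untreated libraries of a line overlapped. Its log2 difference with the hairpin was -1.29 (SE 0.11, adjusted p = 0.000191) untreated and -1.37 (SE 0.11, adjusted p = 0.00012) under fulvestrant. RPS27, a close paralog with which ambiguous reads may be shared, had log2 differences of -0.05 (adjusted p = 1) and 0.10 (adjusted p = 0.469), with 457 ± 24.3 CPM in untreated control-vector cells (SD, n = 3).

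DDB2 (ENST00000256996) recognises UV-damaged DNA for nucleotide excision repair, and its promoter window holds the site without mismatch shown above. It stood at 28.4, 29.5 and 26.9 CPM in untreated control-vector libraries and at 17.5, 19.6 and 19.6 CPM in untreated knockdown libraries. With fulvestrant the levels were 26.4, 27.8 and 23.5 CPM against 13.9, 12.0 and 14.5 CPM. The lines did not overlap in either state, and the lowest values were those of treated knockdown cells. The log2 difference was -0.58 (SE 0.09, adjusted p = 0.00815) untreated and -0.95 (SE 0.09, adjusted p = 0.000261) under fulvestrant. The untreated call was lost when control-vector library 2 (-0.55, adjusted p = 0.0514) or knockdown library 1 (-0.53, adjusted p = 0.0502) of the untreated groups was left out.

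CDKN1A (ENST00000244741) encodes p21, the inhibitor of cyclin-dependent kinases through which p53 halts the cell cycle. Its levels were low in all groups, with 144 to 288 counts per library. Untreated control-vector libraries had 7.68, 9.09 and 9.27 CPM and untreated knockdown libraries 5.67, 6.24 and 7.07 CPM. With fulvestrant the control-vector libraries had 11.7, 12.6 and 10.0 CPM and the knockdown libraries 7.26, 6.20 and 7.37 CPM. Neither pair of groups overlapped. The untreated difference of -0.46 (SE 0.13, adjusted p = 0.146) did not pass, and the difference under fulvestrant was -0.72 (SE 0.13, adjusted p = 0.00666). With a correction for GC content, described below, the latter was -0.49 (adjusted p = 0.0517).

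BAX (ENST00000293288) encodes a pore-forming protein of the mitochondrial apoptosis pathway. It stood at 65.2, 77.2 and 80.5 CPM in untreated control-vector libraries and at 46.1, 49.5 and 54.2 CPM in untreated knockdown libraries. The fulvestrant values were 75.1, 64.3 and 42.3 CPM in control-vector cells and 34.1, 24.4 and 38.8 CPM in knockdown cells. The groups did not overlap, although the third control-vector library under fulvestrant lay close to the knockdown range. The log2 difference was -0.57 (SE 0.21, adjusted p = 0.36) untreated and -0.90 (SE 0.22, adjusted p = 0.0344) under fulvestrant. The second of these failed in 12 of 19 alternative fits. Leaving out 1 library ended the call for 9 of the 12 libraries, with values of -0.94 to -0.74 and adjusted p of 0.05 to 0.0897. The 3 whose omission kept it were library 1 of the untreated control-vector group and library 3 of each fulvestrant group.

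AEN (ENST00000332810) encodes an apoptosis-enhancing nuclease of the nucleolus. Untreated libraries had 22.5, 23.9 and 26.7 CPM with the control vector and 21.3, 20.9 and 22.9 CPM with the hairpin, so the ranges overlapped. Under fulvestrant the control-vector libraries had 16.2, 13.2 and 9.85 CPM and the knockdown libraries 6.52, 5.82 and 8.22 CPM, with no overlap. The difference was -0.17 (SE 0.17, adjusted p = 0.968) untreated and -0.93 (SE 0.17, adjusted p = 0.00934) under fulvestrant. The second was not called when the model used only the 6 fulvestrant libraries (-0.99, adjusted p = 0.099).

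TP53INP1 (ENST00000342697) encodes a p53-inducible nuclear protein with roles in apoptosis and autophagy, and was the member called higher with the hairpin. Untreated levels were 5.55, 5.30 and 4.54 CPM in control-vector libraries and 5.48, 4.24 and 4.09 CPM in knockdown libraries. Under fulvestrant they were 12.3, 13.4 and 14.4 CPM against 18.4, 20.5 and 20.1 CPM. The untreated groups overlapped and the fulvestrant groups did not. The difference was -0.15 (SE 0.13, adjusted p = 0.91) untreated and 0.56 (SE 0.12, adjusted p = 0.0183) under fulvestrant. The latter call was lost in 6 of 19 alternative fits. It was lost when only the fulvestrant groups were fitted (0.50, adjusted p = 0.0722) and in the fit with a replicate block (0.56, adjusted p = 0.0585). It was also lost without control-vector library 1 (0.47, adjusted p = 0.0789) or 2 (0.53, adjusted p = 0.0937), or without knockdown library 2 (0.49, adjusted p = 0.0899) or 3 (0.55, adjusted p = 0.0679), all of the fulvestrant groups.

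MDM2 (ENST00000258148), the feedback ligase, stood at 88.6, 84.8 and 77.1 CPM in untreated control-vector libraries and at 86.4, 82.2 and 78.7 CPM in untreated knockdown libraries. With fulvestrant the values were 66.1, 67.5 and 74.0 CPM against 60.2, 66.7 and 62.8 CPM. Both pairs overlapped. The untreated difference was -0.02, with an approximate 95% interval of -0.17 to 0.14 (adjusted p = 1), and the difference under fulvestrant was -0.13, with an interval of -0.29 to 0.02 (adjusted p = 0.321). With its 1310 to 2491 counts per library, MDM2 had the narrowest intervals of the members not called. The gene for carboxypeptidase M overlaps MDM2 exons on the opposite strand and had 33 to 73 counts. The sources used here do not say whether counting was by strand, so reads of this pair cannot be told apart. The processed pseudogene AC025423.2 overlaps MDM2 exons on the same strand, and AC025423.4 does so on the opposite strand. DINOL overlaps CDKN1A exons and AL390208.1 SESN1 exons, both on the opposite strand. None of these names was found among the counts.

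SESN1 (ENST00000302071) encodes a sestrin, a stress-induced inhibitor of mTORC1 signalling. Its levels were 9.89, 8.12 and 8.19 CPM in untreated control-vector libraries and 8.11, 9.53 and 8.70 CPM in untreated knockdown libraries. Under fulvestrant they were 8.48, 8.87 and 11.4 CPM against 10.1, 10.0 and 9.39 CPM. The 4 groups overlapped. The log2 differences were 0.01 (interval -0.27 to 0.28, adjusted p = 1) and 0.03 (interval -0.25 to 0.31, adjusted p = 0.895), and SESN1 passed in none of the 5 comparisons made here.

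FDXR (ENST00000293195) encodes the mitochondrial ferredoxin reductase, which passes electrons to ferredoxins for iron-sulfur cluster and steroid synthesis. It had the widest scatter, at 10.7, 16.0 and 20.1 CPM in untreated control-vector libraries and 5.55, 7.54 and 9.17 CPM in untreated knockdown libraries. Under fulvestrant it stood at 18.2, 14.2 and 6.41 CPM against 5.10, 2.74 and 5.49 CPM. No knockdown library reached the control range in its state, yet values within a group differed by up to 2.84-fold. The log2 differences of -1.07 (SE 0.40, adjusted p = 0.362) untreated and -1.55 (SE 0.42, adjusted p = 0.0542) under fulvestrant did not pass. Without control-vector library 3 under fulvestrant the second was -1.85 (adjusted p = 0.0126), and DESeq2 gave -1.55 (adjusted p = 0.000959).

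FDXR, BAX and AEN, the members with the widest scatter, were GC-rich, as was CDKN1A. The mean within-group coefficient of variation of CDKN1A, 10.5%, was near the 10.1% of TP53INP1 and the 10.0% of SESN1. Transcript GC content was 63.6% in FDXR, 60.3% in BAX and in AEN, and 60.6% in CDKN1A, which put all 4 at percentile 86.9 or higher among tested genes, while TP53INP1, SESN1, MDM2 and RPS27L lay at percentile 14.2 or lower. Across 15373 genes, the knockdown log2 difference under fulvestrant had a Spearman correlation of -0.41 with GC content, and the untreated one -0.18. Genes are not independent replicates, and the correlations describe these libraries. An alternative fit removed each library's own trend with GC content before testing.

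With this GC correction the mean within-group coefficient of variation fell from 33.6% to 6.62% in FDXR and from 17.3% to 3.67% in BAX. It fell in 9 of the 10 members, and rose from 10.5% to 12.4% in CDKN1A. The correction is fitted to each library's own departure from the mean library. Part of a fall in spread is thus built in where scatter follows GC content, and the share of all genes whose spread fell was not counted. Group differences that follow GC content can also be removed by it. Corrected FDXR levels were 12.2, 12.7 and 13.9 CPM in untreated control-vector libraries and 5.94, 6.57 and 7.12 CPM in untreated knockdown libraries, and 11.8, 12.5 and 11.4 against 5.73, 5.15 and 5.67 CPM under fulvestrant. The 2 lines were then separated by a wide gap in both states. FDXR was then called lower, at -0.98 (SE 0.08, adjusted p = 2.18e-05) and -1.11 (SE 0.09, adjusted p = 6.51e-06).

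Corrected BAX levels were 69.8, 66.8 and 64.0 CPM against 47.6, 45.1 and 46.5 CPM untreated, and 57.5, 59.1 and 62.0 against 36.4, 36.9 and 39.2 CPM under fulvestrant. The knockdown libraries again lay below all control libraries. Its differences were -0.53 (SE 0.04, adjusted p = 2.01e-05) and -0.66 (SE 0.05, adjusted p = 1.75e-06). With the correction 5 members were called lower in untreated cells, against 2.68% of all genes lower and 3.68% higher. Under fulvestrant 7 were lower and 1 higher, against 9.86% lower and 10.2% higher. These 7 included MDM2, at -0.19 (SE 0.03, adjusted p = 0.00147), and no longer CDKN1A. AEN was among them, at -0.69 (SE 0.11, adjusted p = 0.000715). The corrected median log2 difference over the members was -0.47 untreated and -0.68 under fulvestrant. Over all tested genes it was -0.0004 and 0.01.

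**Figure D2:**
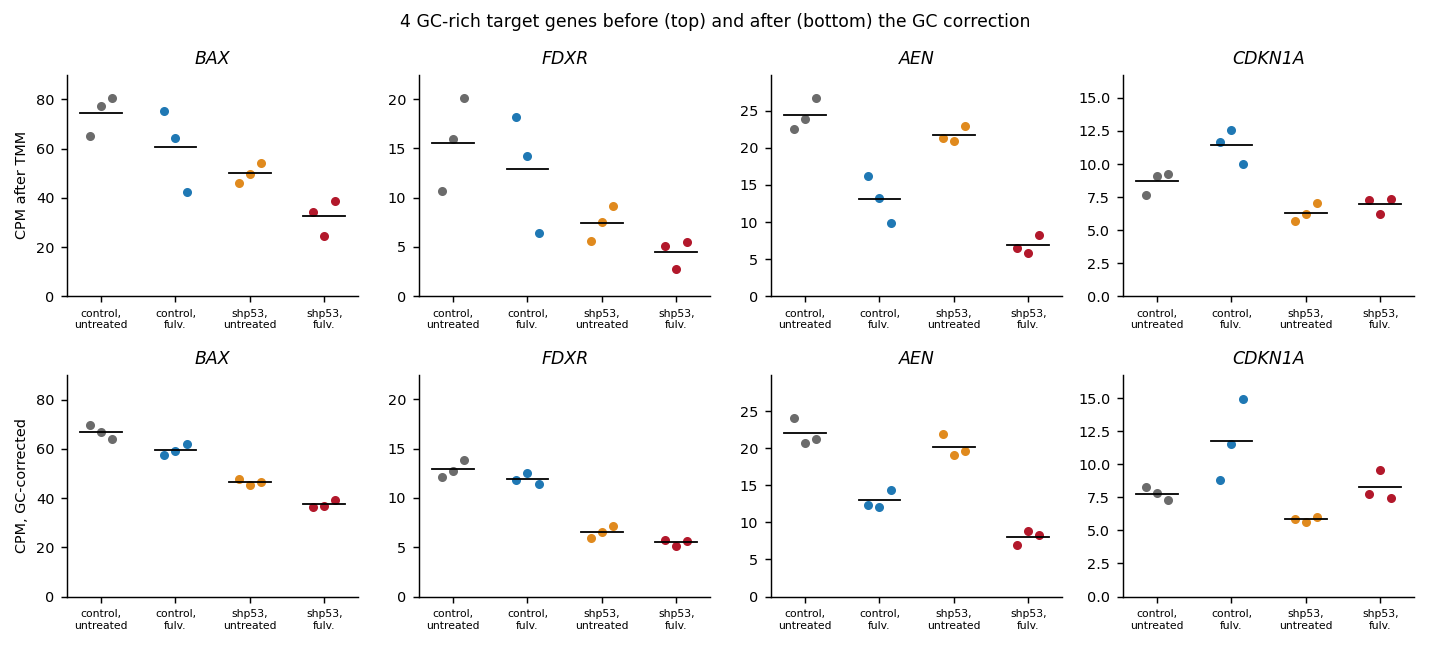
Levels of 4 GC-rich members in each library before (top row, CPM after TMM scaling) and after (bottom row) the GC correction; bars are means of 3 libraries and each gene has 1 scale, starting at 0, for both rows. BAX and FDXR libraries of a group draw together after correction, while fulvestrant-treated control-vector libraries of CDKN1A spread from 8.80 to 14.97 CPM.

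**Figure D3:**
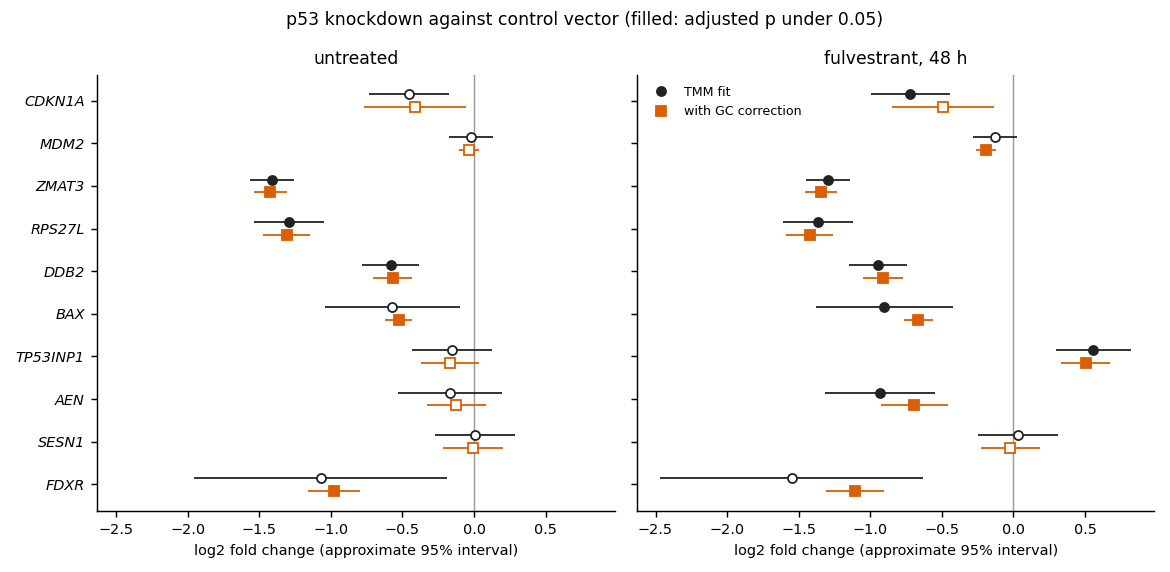
Log2 fold change of the 10 members, knockdown against control vector, without treatment (left) and under fulvestrant (right), with approximate 95% intervals; black circles are from the TMM fit, orange squares from the fit with GC correction, and filled symbols passed an adjusted p of 0.05. ZMAT3, RPS27L and DDB2 are lower in all 4 fits, and FDXR and BAX keep their direction with narrower intervals after correction.

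Between fulvestrant and untreated libraries, some of the 10 genes were higher and others lower within each line. In control-vector cells CDKN1A, ZMAT3 and TP53INP1 rose, or 30%, and MDM2 and AEN fell, or 20%. Of all tested genes 13.4% were higher and 14.3% lower. In knockdown cells ZMAT3 and TP53INP1 rose, or 20%, and MDM2, DDB2, BAX and AEN fell, or 40%. Of all tested genes 21.3% were higher there, a share near that of the members, and 19.6% lower. The sign of the change was the same in both lines for all 10 members. The share of all genes that kept their sign was not counted. RPS27L, SESN1 and FDXR were called in neither line. Each of them changed sign in at least 1 line when a library was left out. DDB2 and BAX were not called in control-vector cells, and CDKN1A was not called in knockdown cells. The comparisons share libraries with the knockdown comparisons above and are not independent of them.

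Of the members TP53INP1 rose most, from 5.13 ± 0.53 to 13.4 ± 1.08 CPM (SD, n = 3) in control-vector cells and from 4.60 ± 0.76 to 19.7 ± 1.11 CPM in knockdown cells. These were log2 changes of 1.38 (SE 0.12, adjusted p = 2.65e-05) and 2.09 (SE 0.13, adjusted p = 7.63e-07). ZMAT3 rose by 0.66 (SE 0.07, adjusted p = 6.39e-05) and 0.78 (SE 0.07, adjusted p = 1.05e-05), so that treated knockdown cells still lay below untreated control cells. AEN fell from 24.4 ± 2.13 to 13.1 ± 3.17 CPM in control-vector cells and from 21.7 ± 1.08 to 6.85 ± 1.23 CPM in knockdown cells. Its changes were -0.90 (SE 0.17, adjusted p = 0.00257) and -1.66 (SE 0.17, adjusted p = 3.03e-05).

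MDM2 fell in both lines, with changes of -0.27 (SE 0.07, adjusted p = 0.0145) and -0.38 (SE 0.07, adjusted p = 0.00133). The first was not called without either library 1 (-0.23, adjusted p = 0.0515) or 2 (-0.26, adjusted p = 0.0516) of the untreated control-vector group, or library 1 (-0.22, adjusted p = 0.0904) or 2 (-0.23, adjusted p = 0.115) of the treated one. DDB2 fell in knockdown cells (-0.49, SE 0.09, adjusted p = 0.00161), while its change in control-vector cells was -0.12 (SE 0.09, adjusted p = 0.358). BAX had changes of -0.62 (adjusted p = 0.0416) in knockdown and -0.30 (adjusted p = 0.357) in control-vector cells. The BAX call was lost in 9 of 19 alternative fits. These included leaving out library 2 or 3 of the untreated control-vector group, any 1 of the untreated knockdown group, or library 1 or 2 of the treated knockdown group, with values of -0.68 to -0.48 and adjusted p of 0.0538 to 0.117.

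CDKN1A rose by 0.40 (SE 0.12, adjusted p = 0.0348) in control-vector cells, and 11 of 19 alternative fits did not call it. It was lost without any 1 untreated control-vector library, library 1 or 2 of the treated control-vector group, library 2 of the untreated or library 1 of the treated knockdown group, with values of 0.31 to 0.45 and adjusted p of 0.051 to 0.129. In knockdown cells its change was 0.13 (SE 0.13, adjusted p = 0.421). RPS27L changed by 0.13 (adjusted p = 0.445) and 0.05 (adjusted p = 0.719), and FDXR by -0.27 (adjusted p = 0.677) and -0.75 (adjusted p = 0.18). With GC correction the members called were 3 higher and 3 lower in control-vector cells, against 22.7% and 20.6% of all genes, and 3 higher and 5 lower in knockdown cells, against 29.5% and 25.1%. CDKN1A was then called in both lines, at 0.58 (adjusted p = 0.0108) and 0.49 (adjusted p = 0.0257).

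**Figure D4:**
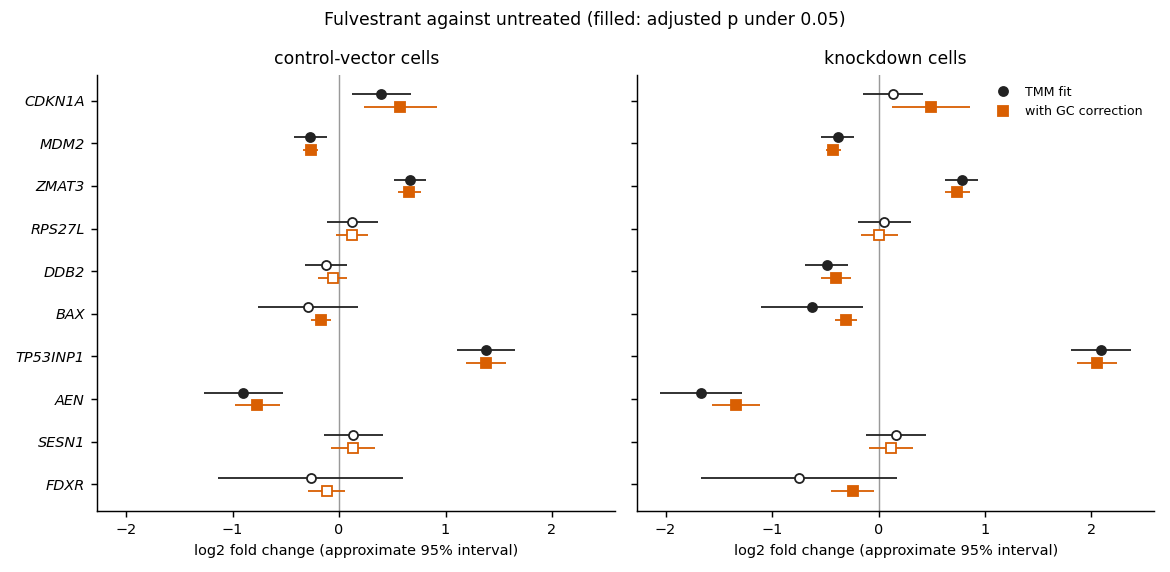
Log2 fold change of the 10 members, fulvestrant for 48 h against untreated at 0 h, in control-vector (left) and knockdown cells (right), with approximate 95% intervals; symbols as for the knockdown plot. TP53INP1 rises by 1.38 and 2.09 and AEN falls, with changes of -0.90 and -1.66 in the TMM fit, and the interval of SESN1 spans 0 in both lines.

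The 2 fulvestrant responses were also compared directly. None of the 10 members passed for the difference between knockdown and control-vector responses, where 0.0127% of all tested genes were called higher and 0.0127% lower. At an unadjusted p under 0.05, 1 member was higher and 2 were lower, namely TP53INP1, AEN and DDB2. The share of all genes at that cut was not counted, and DDB2 ranked 552 by p among the 15715 tested genes. TP53INP1 had a log2 difference of 0.71 (SE 0.17, unadjusted p = 0.00195, adjusted p = 0.248), AEN of -0.77 (SE 0.24, unadjusted p = 0.00882, adjusted p = 0.38) and DDB2 of -0.36 (SE 0.13, unadjusted p = 0.0168, adjusted p = 0.478). DESeq2 called 0 members. With GC correction TP53INP1 was called, at 0.67 (SE 0.12, adjusted p = 0.00986), AEN stood at -0.57 (adjusted p = 0.0507) and DDB2 at -0.34 (adjusted p = 0.0607). The background was then 1.18% higher and 2.39% lower, and the difference had a Spearman correlation of -0.38 with GC content before correction.

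Further p53 targets were grouped by role, and 79 of 82 were tested. In untreated cells 2 were lower with the hairpin, or 2.53%, and 0 higher, with a median log2 difference of -0.07. Of all genes 0.566% were lower and 1.02% higher. The 2 were TNFRSF10D, a decoy receptor for the death ligand TRAIL (-0.65, SE 0.11, adjusted p = 0.0155), and DRAM1, a lysosomal regulator of autophagy (-0.36, SE 0.07, adjusted p = 0.0262). With GC correction 6 were lower, or 7.59%, and 4 higher, or 5.06%, against 2.68% and 3.68% of all genes. At an unadjusted edgeR p under 0.05, 9 of the 79 were lower and 5 higher, and the share of all genes at that cut was not counted. PMAIP1, with an unadjusted edgeR p of 0.0472, ranked 1474 among the 15715 tested genes. Under fulvestrant 11 were lower, or 13.9%, and 3 higher, or 3.8%, with a median of -0.16, against 2.74% and 4.28% of all genes. Without the filter on low counts 3 were lower and 3 higher, where 359 of all genes were called lower and 387 higher. With GC correction 18 were lower, or 22.8%, and 6 higher, or 7.59%, with a median of -0.08, against 9.86% and 10.2% of all genes.

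Among 16 apoptosis genes, 3 were lower under fulvestrant with the hairpin, where 2.74% of all genes were lower. Without the filter on low counts 0 of the 16 were lower and 1 was higher. The 3 were the TRAIL receptor genes TNFRSF10A (-0.30, adjusted p = 0.0259), TNFRSF10B (-0.21, adjusted p = 0.0173) and the decoy receptor gene TNFRSF10D (-0.46, adjusted p = 0.0376). PERP, a membrane protein of desmosomes, was higher (0.55, adjusted p = 0.000858). Among 8 genes of DNA repair and nucleotide supply, the replication clamp gene PCNA (-0.54, adjusted p = 0.00102) and the Fanconi gene FANCC (-0.41, adjusted p = 0.0308) were lower, and REV3L, the catalytic subunit of a translesion polymerase, was higher (0.54, adjusted p = 0.00441).

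The 10 cell cycle arrest genes held 1 lower, the repressor E2F7 (-0.41, adjusted p = 0.0224). The 13 genes of metabolism and autophagy held 2 lower, DRAM1 (-0.33, adjusted p = 0.0164) and C12orf5, which encodes the fructose bisphosphatase TIGAR (-0.36, adjusted p = 0.0402). The 12 secreted and surface genes held 1 lower, the matrix protein THBS1 (-0.22, adjusted p = 0.0122). Of the 20 other targets ENC1 (-0.26, adjusted p = 0.0147) and FBXO22 (-0.36, adjusted p = 0.0402) were lower. CMBL was higher (1.80, adjusted p = 0.024) at a level of 0.99 ± 0.37 CPM in treated knockdown cells (SD, n = 3); it fell outside the rule for named genes and was named after its value was seen.

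**Figure D5:**
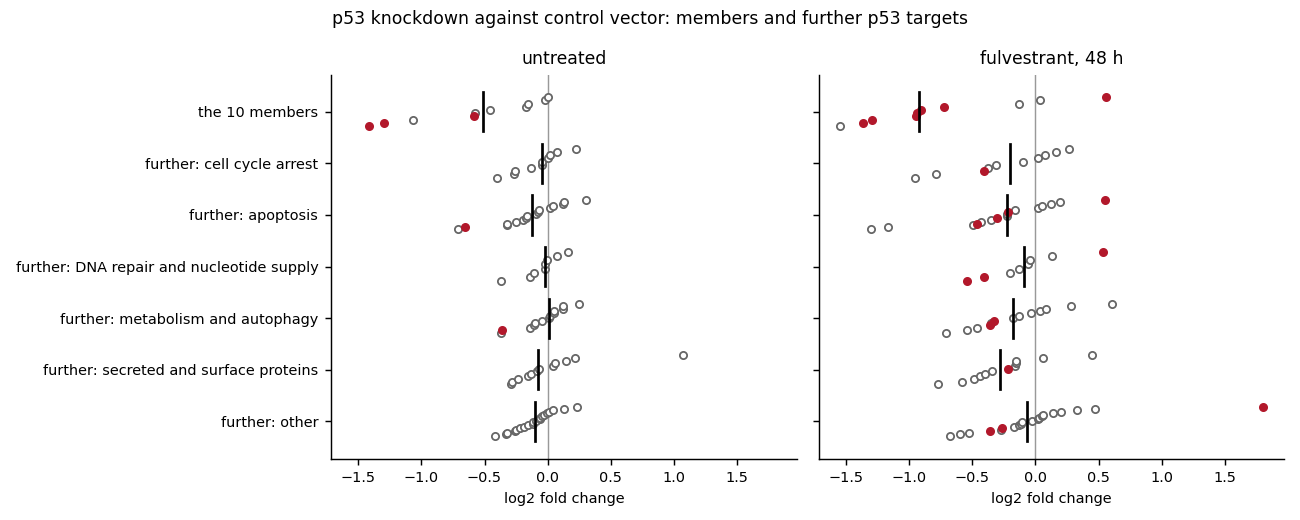
Log2 fold change, knockdown against control vector, of the 10 members and of 79 further p53 targets by role, without treatment (left) and under fulvestrant (right); red points passed an adjusted p of 0.05 and black bars are medians. The members' medians lie at -0.51 and -0.92, and the medians of the further lists lie between -0.28 and 0.01.

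Between fulvestrant and untreated libraries, 18 of the 79 further targets were higher, or 22.8%, and 8 lower, or 10.1%, in control-vector cells, against 13.4% and 14.3% of all genes. In knockdown cells 21 were higher, or 26.6%, and 13 lower, or 16.5%, against 21.3% and 19.6% of all genes. With GC correction 28 were higher and 11 lower in control-vector cells, against 22.7% and 20.6% of all genes, and 29 were higher and 18 lower in knockdown cells, against 29.5% and 25.1%. DRAM1 rose by 0.84 (adjusted p = 1.52e-05) and 0.87 (adjusted p = 4.63e-06) in the 2 lines, although it was lower with the hairpin in both states. PCNA fell, with changes of -0.66 (adjusted p = 6.21e-05) and -1.06 (adjusted p = 1.09e-06), as did THBS1, with changes of -0.33 (adjusted p = 0.000247) and -0.69 (adjusted p = 8.67e-07). ORAI3, a calcium channel gene, rose by 1.11 (adjusted p = 0.000829) and 1.32 (adjusted p = 0.00014). Counts for a list are a description and are to be read beside the share of all genes called.

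Among 14 tested regulators of p53, TP63, which encodes a transcription factor of the same family, was higher with the hairpin in both states, at 0.63 (SE 0.11, adjusted p = 0.019) untreated and 0.44 (SE 0.11, adjusted p = 0.0402) under fulvestrant. Its level was 7.23 ± 0.98 CPM in untreated control-vector cells and 11.2 ± 0.15 CPM in untreated knockdown cells (SD, n = 3). The kinase genes HIPK2 (-0.24, adjusted p = 0.0102) and CHEK1 (-0.34, adjusted p = 0.0338) were lower under fulvestrant with the hairpin. MDM4, the partner of MDM2 that masks the activation domain of p53, had differences of 0.06 (adjusted p = 1) and -0.03 (adjusted p = 0.844). The checkpoint kinase gene CHEK2 fell with fulvestrant, with changes of -0.55 (adjusted p = 0.000739) in control-vector cells and -0.93 (adjusted p = 1.12e-05) in knockdown cells.

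Likeness across the 12 libraries was described for 4 members, over 10169 genes whose mean log2 CPM reached 3 or more. The highest Pearson values were 0.98 for ZMAT3 (with UBXN4), 0.99 for RPS27L (with MIB1), 0.97 for DDB2 (with KISS1) and close to 1.00 for TP53INP1 (with YPEL5, ZNFX1 and TBC1D5). ATP8B2 and DOCK1 followed for ZMAT3, KDSR and TAPT1 for RPS27L, and ZHX3 and ANKFY1 for DDB2. The libraries fall into 4 groups, so these values mostly reflect the order of the 4 group means and carry no test.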

How the data were processed

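Expected counts (RSEM estimated counts per gene, whole numbers, not normalized) were used as deposited, per the file headers. RSEM 1.3.3, Bowtie2, cutadapt, MultiQC and GRCh37/hg19 are named in the submitters' processing notes; the sources used here give neither annotation nor settings nor the use of strand in counting. Because RSEM divides reads between similar transcripts, paralogs are less certain. Not used were 6 per-sample columns that matched no sample. Per the labels, 500 ng of RNA entered a stranded mRNA preparation with 9 PCR cycles.

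In R 4.3.3, edgeR 4.0.16 (rounded counts, TMM, filterByExpr, robust quasi-likelihood) was fitted to 12 libraries with 1 mean per group. The p-values of this edgeR test were adjusted by Benjamini-Hochberg over 15715 genes (threshold 0.05), and CPM follow TMM. SEs are approximate, the log2 fold change over the square root of F, and intervals use them. The method was tested on simulated data. The simulated counts had the same dispersion for all genes and no trend with GC content. They therefore do not show how the method handles the scatter between these libraries. Alternatives were RLE scaling, DESeq2 1.42.0, no filter, a replicate block, a GC correction (per-library lowess trend of counts on GENCODE 29 transcript GC content, known for 97.82% of tested genes, entered as offsets), that correction with the block, only the groups compared, and leaving out each library. Levels and intervals with the correction come from that fit.

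Members and lists were chosen with earlier results of these data known. Named are the members, their paralogs and partners, up to 3 genes of smallest p per list and pairwise comparison with mean log2 CPM of at least 1, and the 3 genes most like each of 4 members. The level of the hairpin's target gene is not reported here.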

Additional observations from a re-analysis of the deposited data

How the results depend on the processing

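ZMAT3 and RPS27L kept their direction and their side of the threshold in both knockdown comparisons in all 19 alternatives; so did DDB2 under fulvestrant. Of 939 values of single genes under an alternative, 848 kept direction and call, 47 lost and 17 gained a call, and 27 changed sign, none of them called in the main test.

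Replicate numbers did not pair the libraries throughout: same-numbered libraries had correlations of deviations from -0.63 to 0.46. In the untreated knockdown comparison the best match had the same number for replicates 1 (0.46) and 3 (0.38). It did so for replicate 3 (0.29) between treated and untreated knockdown libraries. With 3 libraries per group, pairing is not excluded by these values. With the replicate block the members called were 3, 5, 4, 5 and 0 over the 5 comparisons (knockdown untreated, knockdown under fulvestrant, fulvestrant with the control vector, fulvestrant with the hairpin, and the difference of responses) against 3, 7, 5, 6 and 0, and the genes called were 145, 620, 3613, 5584 and 0 against 249, 1103, 4363, 6431 and 4.

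GC correction called 5, 8, 6, 8 and 1 members and 999, 3159, 6815, 8578 and 561 genes. The replicate block with GC correction called 5, 8, 6, 7 and 1 members and 757, 2625, 6282, 8073 and 336 genes. Using only the groups compared called 4 members and 229 genes under fulvestrant. For the difference, DESeq2 called 31 genes and the fit without a filter 0.

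Leaving out 1 library gave 2 to 3, 5 to 8, 3 to 5, 5 to 6 and 0 to 0 members, and 126 to 319, 456 to 2270, 3102 to 4417, 5165 to 7429 and 0 to 7 genes; the 2270 came without library 3 of fulvestrant-treated control-vector cells.

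Signs changed for SESN1 (untreated knockdown: RLE -0.0003981, DESeq2 -0.003155, GC -0.006639, block with GC -0.006715; knockdown under fulvestrant: GC -0.02092, block with GC -0.01723, groups compared -0.01944; difference: GC -0.01428, block with GC -0.01052). With 1 library left out they did so for SESN1 (-0.05797 to 0.1043, -0.07674 to 0.2073, control-vector response -0.04361 to 0.2402, difference -0.07963 to 0.205), MDM2 untreated (-0.07306 to 0.02638), RPS27L (-0.04825 to 0.2307, -0.0216 to 0.1123, difference -0.1769 to 0.1028) and FDXR (-0.5991 to 0.01681). The cause was not tested.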

Other observations

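Paralogs and partners of the members were listed as well, and 17 were tested. None passed with the hairpin in untreated cells, where edgeR called 0 of 17, against 1.02% of all genes higher and 0.566% lower. At an unadjusted p under 0.05, 2 were higher and 2 lower, and the share of all genes at that cut was not counted. Under fulvestrant 2 were higher with the hairpin, or 11.8%, and 0 lower, against 4.28% and 2.74% of all genes. Under treatment, SESN3, a further sestrin, had 7.64 ± 0.69 CPM with the control vector and 17.7 ± 0.86 CPM with the hairpin (SD, n = 3), a log2 difference of 1.21 (SE 0.14, adjusted p = 0.000509), while SESN1 did not pass. TP53INP2, the paralog of TP53INP1 that acts in autophagy, stood at 22.1 ± 0.56 and 33.1 ± 0.81 CPM, a difference of 0.59 (SE 0.06, adjusted p = 0.000347).

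Both genes rose with fulvestrant in both lines, SESN3 by 1.15 (adjusted p = 0.000218) and 1.76 (adjusted p = 4.32e-06) and TP53INP2 by 1.05 (adjusted p = 2.54e-06) and 1.43 (adjusted p = 1.28e-07), in control-vector and knockdown cells in that order. Neither response differed between the lines at the threshold (SESN3 0.61, adjusted p = 0.397; TP53INP2 0.38, adjusted p = 0.21). ISG20L2, a nuclease paralog of AEN, fell, with changes of -0.40 (adjusted p = 0.00176) and -0.51 (adjusted p = 0.000211). CDKN1B, the gene of the kinase inhibitor p27, rose by 0.19 (adjusted p = 0.0125) and 0.30 (adjusted p = 0.000414). DDB1, the partner of DDB2 in the ubiquitin ligase of nucleotide excision repair, fell, with changes of -0.18 (adjusted p = 0.0136) and -0.13 (adjusted p = 0.0397).

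Across the 12 libraries, BAX and FDXR, both GC-rich, had a Pearson value of 0.98 with each other, and TP53INP1 and AEN one of -0.94. The libraries fall into 4 groups, so these are descriptions without a test.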
